A study of Homo sapiens with 6 samples.

Results

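The genes described here are the cadherin superfamily and the desmosomal cadherins, as they stood in Huh7 hepatocellular carcinoma cells that carried a UBE2S knockout and in wild-type Huh7 cells. Members were taken by gene symbol alone, as every CDH, CDHR, DSG, DSC, PCDH, FAT, DCHS and CELSR gene of the deposited table, which gave 110 of its 20289 genes. Poly(A) RNA was sequenced from 3 UBE2S knockout libraries and 3 wild-type libraries, and the series asked which genes act downstream of UBE2S (which encodes an E2 enzyme that extends ubiquitin chains for the anaphase-promoting complex). No treatment or time is labelled for either group. The sources used here give neither the way the knockout was made nor whether the libraries came from 1 clone or from separate cultures. The p-values therefore cover only the variation among these libraries, part of which may be technical.

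Cadherins are calcium-dependent adhesion proteins whose extracellular repeats bind cadherins on the next cell. Classical cadherins hold adherens junctions through catenins and actin, and desmosomal cadherins (desmogleins and desmocollins) hold desmosomes through plakoglobin, plakophilins, desmoplakin and keratin filaments. In hepatocytes E-cadherin and N-cadherin are present side by side, and DSG2 with DSC2 is the desmosomal pair of simple epithelia, whereas DSG3 and DSC3 belong mainly to stratified epithelium. Fat, Dachsous and Celsr proteins take part in planar cell polarity, and protocadherins are studied chiefly in neurons.

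Library totals were 21840499 to 25840104 estimated counts in knockout libraries and 23300336 to 27910396 in wild-type libraries. Levels are given as CPM, counts scaled to a common library total, on TMM-scaled library sizes. UBE2S itself had 47.6, 45.4 and 44.2 CPM in knockout libraries, against 234, 220 and 216 CPM in wild-type libraries (log2 fold change -2.29, SE 0.04, edgeR adjusted p = 1.6e-12). Wild-type replicate 1 stood apart from the other wild-type libraries: its chi-square per degree of freedom was 8.41 and 10.9 against them, while they gave 1.80 between themselves and knockout pairs gave 1.40 to 1.55. All 12 hepatocyte markers were above the filter on low counts, with a summed level of 33895 to 34492 CPM in knockout libraries and 36106 to 36704 CPM in wild-type libraries. They did not share a direction: at an edgeR adjusted p below 0.05, 5 were higher and 7 lower in the knockout. Over all tested genes 60.1% passed that threshold.

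Of the 110 members, 73 had enough counts to be tested, and 35 of these (47.9%) were called at an adjusted p below 0.05, compared with 60.1% of all 13265 tested genes. Thus the cadherin genes were not called more often than genes in general. There were 25 higher members and 10 lower members in the knockout, while 29.4% of all tested genes were called higher and 30.7% lower. The median log2 fold change of the tested members was 0.13, beside -0.00057 over all tested genes. In 33 members the libraries of the groups did not overlap, where 65.8% of all tested genes did not overlap. Called changes of at least 1 on the log2 scale were seen in 10 members, 4 of them lower and 6 higher. Over all tested genes such changes made up 6.14%, with 3.22% lower and 2.92% higher. Without wild-type replicate 1, the number of called members was 39, of which 33 were among the 35. The share of all tested genes called in that fit is not given here, so the 39 are not set against a background. Among the 53 clustered protocadherins, 41 were tested and 29.3% of those called. Among the 57 other members, 32 were tested and 71.9% of those called. The 60.1% called over all tested genes is the background for the subfamily counts below.

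**Figure D1:**
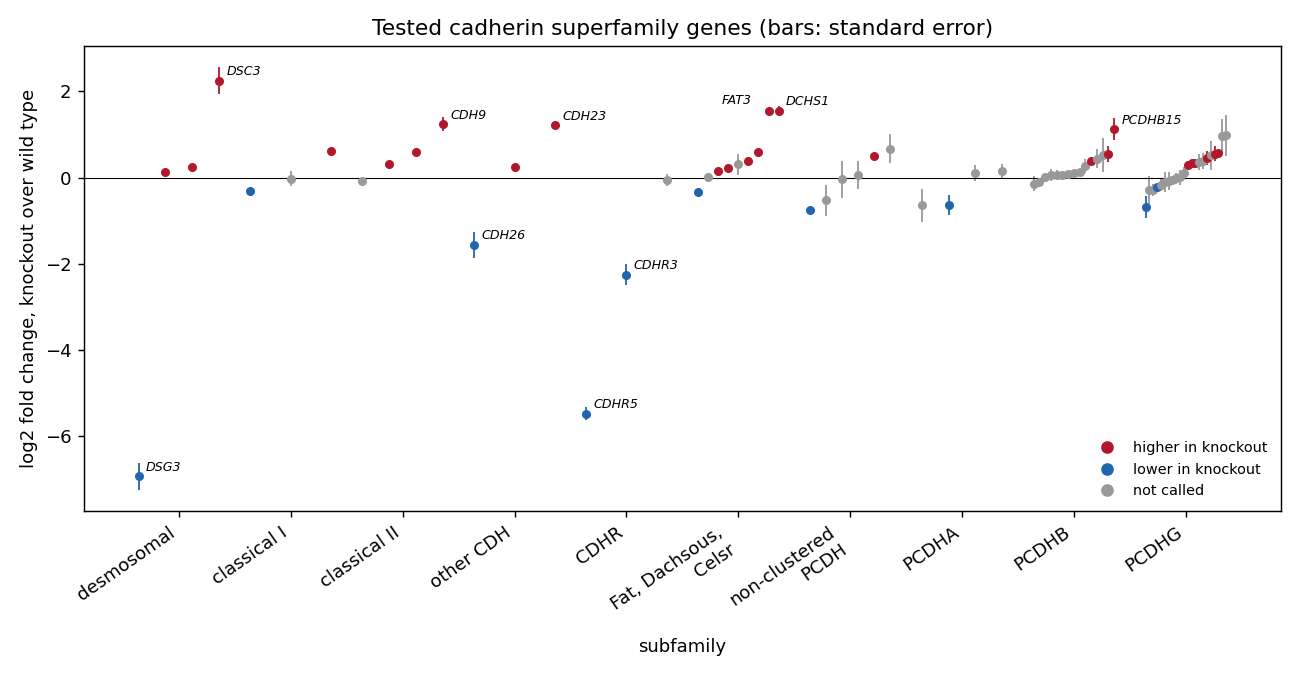
Log2 fold change (knockout over wild type) of the 73 tested members by subfamily, with bars of 1 standard error and colour for the edgeR call; the genes with a called change of at least 1 are named. DSG3 (-6.94) and CDHR5 (-5.48) lie far below the others, and DSC3 (2.25) is the highest.

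The members together held 0.153% to 0.155% of the counts in knockout libraries and 0.133% to 0.134% in wild-type libraries. Their summed level was 1533 ± 4.52 CPM in the knockout and 1340 ± 23.3 CPM in wild type (SD, n = 3 each). N-cadherin (CDH2) alone made up 15.2% of that sum in the knockout and 11.2% in wild type. Levels of different genes can be compared only per length, and per kilobase of exon CDH2 was the most abundant member in both groups, at 47.0 CPM per kb in the knockout and 30.4 in wild type. CDH17 was next in both groups, at 31.1 CPM per kb in the knockout and 26.4 in wild type. E-cadherin (CDH1) stood at rank 8 in the knockout with 10.6 CPM per kb and at rank 5 in wild type with 13.2 CPM per kb.

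The classical type I cadherins moved apart: N-cadherin rose and E-cadherin fell in the knockout. CDH2 (chr18:27950966-28177446, minus strand; GENCODE release 29, GRCh38, as for all gene positions here) had 229, 235 and 234 CPM in knockout libraries, against 156, 146 and 150 CPM in wild-type libraries. Every knockout library lay above every wild-type library, and the log2 fold change was 0.63 (SE 0.03, edgeR adjusted p = 6.7e-09). CDH1 (chr16:68737225-68835548, plus strand) had 67.2, 66.6 and 63.3 CPM in knockout libraries, against 82.1, 81.5 and 81.1 CPM in wild-type libraries. Here the knockout libraries were all below the wild-type ones (log2 fold change -0.31, SE 0.04, edgeR adjusted p = 8.8e-06). The ratio of CDH2 to CDH1 per kilobase of exon was 4.26, 4.40 and 4.61 in knockout libraries and 2.37, 2.23 and 2.31 in wild-type libraries. Because CDH2 and CDH1 had each separated, in opposite directions, these ratios had to separate as well. The exact two-sided permutation test gave p = 0.1, the smallest that 3 against 3 libraries allow. It therefore adds nothing to the results of the single genes. R-cadherin (CDH4) had 1.85 ± 0.294 CPM in the knockout and 1.88 ± 0.118 CPM in wild type and was not called (log2 fold change -0.03).

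Most tested genes around E-cadherin were not called. Of 17 other tested genes within 500 kb of CDH1, 5 were called higher, 1 lower and 11 were not called. Their median log2 fold change was 0.05. Of all tested genes, 29.4% were called higher and 30.7% lower. Among transcription factors and cofactors known to act on the E-cadherin gene, 3 of 14 tested were called higher and 8 lower, with a median of -0.24. In all, 78.6% were called, beside 60.1% of all tested genes. Repressors and activators are mixed in that list. The repressors ZEB2 (-1.96, SE 0.16) and SNAI2 (-1.74, SE 0.33) fell, and so did KLF4 (-1.37, SE 0.10), which activates the gene in epithelial cells. The 3 higher genes were TCF4 (0.39), the corepressor CTBP1 (0.33) and the hepatic forkhead factor FOXA2 (0.20).

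Of 13 type II cadherins, 4 were tested, and 3 of them were higher in the knockout. CDH6, known as kidney cadherin and also described in hepatocellular carcinoma, had 67.9, 71.7 and 67.5 CPM in knockout libraries, against 46.4, 48.3 and 43.6 CPM in wild-type libraries. The groups did not overlap, and CDH6 rose (log2 fold change 0.58, SE 0.05, edgeR adjusted p = 2.7e-07). CDH9, a cadherin of neurons and kidney, was scarcer but rose further, with 3.23, 3.16 and 2.85 CPM in knockout libraries against 1.26, 1.20 and 1.43 CPM in wild-type libraries (log2 fold change 1.24, SE 0.16, edgeR adjusted p = 2.8e-05). CDH24 had 18.4 ± 0.642 CPM in the knockout and 14.7 ± 0.117 CPM in wild type, and rose (log2 fold change 0.32, SE 0.06, edgeR adjusted p = 4.2e-04). Its rise stood in a lower neighbourhood, where the 25 tested genes on each side had a median log2 fold change of -0.38, and with that shift taken off CDH24 stood at 0.70 (edgeR adjusted p = 7.6e-07). CDH19, a cadherin of Schwann cell precursors, overlapped between groups at 13 ± 0.574 CPM in the knockout and 13.8 ± 0.763 CPM in wild type.

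**Figure D2:**
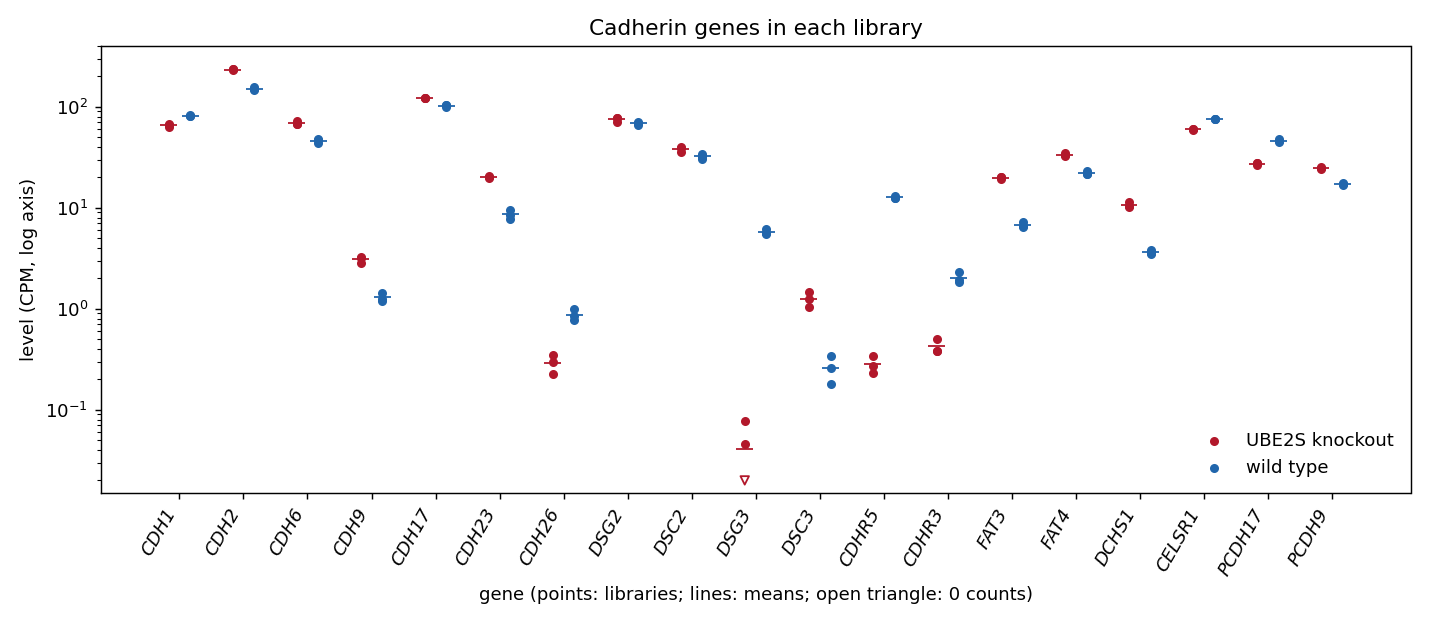
Level in CPM (log axis) of 19 members in each of the 3 UBE2S knockout (red) and 3 wild-type (blue) libraries, with lines at the means and an open triangle for a library with 0 counts. The groups separate in every gene shown except DSG2, and DSG3 shows the widest gap.

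The desmosomal cadherins lie in 1 cluster on chromosome 18, and its members did not move together. All 4 tested members were called: DSG3 was nearly lost in the knockout, DSC3 rose at a low level, and DSC2 and DSG2 were slightly higher. The promoters of DSG3, its neighbour DSG2 and DSC3 are shown because these genes lie within 1 locus, in which DSG3 had the largest fall and DSC3 the largest rise of all tested members. Each sequence is from RefSeq, build GRCh38.p14, runs 5′ to 3′ on the gene's own strand over the 300 bases that RefSeq's promoter table lists for the gene, and has its CG dinucleotides in capitals.
DSG3, chr18:31447491-31447790, plus strand: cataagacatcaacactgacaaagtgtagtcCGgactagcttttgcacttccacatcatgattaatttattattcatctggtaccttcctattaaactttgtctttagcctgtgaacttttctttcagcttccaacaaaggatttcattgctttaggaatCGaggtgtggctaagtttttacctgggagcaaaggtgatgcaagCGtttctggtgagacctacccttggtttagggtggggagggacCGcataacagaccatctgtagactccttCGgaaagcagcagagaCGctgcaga
DSG2, chr18:31497927-31498226, plus strand: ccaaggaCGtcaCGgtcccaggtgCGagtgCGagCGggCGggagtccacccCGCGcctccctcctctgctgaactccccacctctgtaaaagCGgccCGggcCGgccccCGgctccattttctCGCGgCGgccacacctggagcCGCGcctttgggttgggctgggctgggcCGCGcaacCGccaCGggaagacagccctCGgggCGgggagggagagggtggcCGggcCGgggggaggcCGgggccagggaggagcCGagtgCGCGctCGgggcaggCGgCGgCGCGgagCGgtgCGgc
DSC3, chr18:31042693-31042992, minus strand: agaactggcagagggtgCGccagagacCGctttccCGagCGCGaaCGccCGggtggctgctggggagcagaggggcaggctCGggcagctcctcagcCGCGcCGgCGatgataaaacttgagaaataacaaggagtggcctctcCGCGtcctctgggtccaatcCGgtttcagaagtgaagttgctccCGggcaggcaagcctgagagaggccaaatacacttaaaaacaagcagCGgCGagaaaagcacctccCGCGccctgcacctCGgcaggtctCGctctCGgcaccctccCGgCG
The DSG3 window ends just before the start that GENCODE gives the gene (31447795), whereas the DSG2 and DSC3 windows hold theirs. The CG dinucleotide reads the same on both strands, and it was counted as the letters CG. These windows held 6 in DSG3, 36 in DSG2 and 25 in DSC3, where the median over 35116 listed promoters of 300 bases was 14 (quartiles 4 and 28) and 96.0% held at least 1. A count at or below that of DSG3 was found in 36.8% of all listed promoters, and a count at or above that of DSC3 in 32.0%. Over the 108 promoters listed for members the median was 9 (quartiles 5 and 16). Among members called with a log2 change of at least 1, the 4 promoters of 3 lower members held 1 to 6. The 6 promoters of 4 higher members held 1 to 43. The letters are a description of the reference, and methylation was not measured.

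DSG3, the desmoglein of the deep layers of stratified epithelium and the antigen of pemphigus vulgaris, had 1, 0 and 2 estimated counts in knockout libraries, against 150.33, 144 and 158.25 in wild-type libraries. In CPM these were 0.0455, 0 and 0.0771 in the knockout and 5.55, 6.18 and 5.64 in wild type. The knockout level was 0.730% of wild type, with an exact 95% binomial interval of 0.150% to 2.15% that covers counting error only. The fitted log2 fold change was -6.94 (SE 0.31, edgeR adjusted p = 2.2e-09), and it depends on the prior count because the knockout is near 0. In bulk RNA, fewer cells that express a gene and less RNA per cell cannot be told apart.

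DSC3, the desmocollin usually found with DSG3, moved the other way. It had 32, 29 and 27 counts in knockout libraries, against 7, 8 and 5 in wild-type libraries, so all knockout libraries lay above. The ratio of scaled counts was 4.84 (95% interval 2.95 to 8.30), and the log2 fold change was 2.25 (SE 0.31, edgeR adjusted p = 4.7e-05). Its level stayed low at 1.25 ± 0.207 CPM in the knockout and 0.260 ± 0.0824 CPM in wild type. DSG1, the desmoglein of upper epidermis, was under the filter with 2, 2 and 1 counts in knockout libraries and 6, 1 and 6 in wild-type libraries.

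The pair of simple epithelia changed little. DSC2 had 39.2, 40.1 and 35.8 CPM in knockout libraries, against 31.9, 30.5 and 34.2 CPM in wild-type libraries, without overlap (log2 fold change 0.25, SE 0.06, edgeR adjusted p = 0.0025). DSG2 had 70.4, 77.5 and 77.8 CPM in knockout libraries, against 69.4, 65.8 and 71.4 CPM in wild-type libraries. These overlapped, and the DSG2 call (log2 fold change 0.13, SE 0.05, edgeR adjusted p = 0.031) was lost in 5 of 15 alternatives, among them DESeq2 and the fits without knockout replicate 2, knockout replicate 3 or wild-type replicate 2. Next to DSG2, the hepatocyte gene TTR fell (-0.57, SE 0.05), while B4GALT6 and TRAPPC8, the other tested non-member genes within 500 kb of DSG3, were not called.

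Because DSG3 and DSC3 belong to stratified epithelium, keratinocyte markers were read beside them. Of 7 keratinocyte markers, KRT1, KRT14 and IVL were at 0 in all libraries, and KRT5 and LORICRIN had at most 1 count. TP63, the transcription factor of basal keratinocytes, had 6, 2 and 7 counts in knockout libraries and 28, 25 and 32 in wild-type libraries (log2 fold change -2.34, SE 0.35, edgeR adjusted p = 8.4e-05). KRT10 rose (0.44, SE 0.09) and made up most of the list's summed level, which was 18.3 to 21.2 CPM in knockout libraries and 13.5 to 16.8 CPM in wild-type libraries. The part of TP63 in the DSG3 result was not tested.

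Plaque genes of the desmosome moved in both directions: 3 of 8 tested were higher and 3 lower, with a median log2 fold change of -0.05. The share called was 75%, beside 60.1% of all tested genes. PKP3, a plakophilin that binds desmosomal cadherins and desmoplakin, had 1, 2 and 2 counts in knockout libraries, against 83, 101 and 119 in wild-type libraries. It was thus nearly lost, as DSG3 was, at a log2 fold change of -5.69 (SE 0.34; adjusted p = 2.4e-08 in edgeR). PKP2, the more abundant plakophilin, rose (0.47, SE 0.04), as did periplakin (PPL, 0.44, SE 0.04) and envoplakin (EVPL, 1.29, SE 0.21). PERP (-0.15, SE 0.03) and desmoplakin (DSP, -0.11, SE 0.03) fell slightly, and plakoglobin (JUP, -0.09) and PKP4 (-0.02) were not called.

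The cadherin-related and other cadherins held both large falls and large rises. CDHR5, a mucin-like protocadherin that binds CDHR2 between the tips of neighbouring microvilli, had 6, 8 and 6 counts in knockout libraries, against 339, 307 and 354 in wild-type libraries. The knockout level was 2.2% of wild type (95% interval 1.34% to 3.41%), without overlap between groups. Its partner CDHR2 had 3.0, 4.06 and 4.20 CPM in knockout libraries, against 4.33, 3.52 and 3.92 CPM in wild-type libraries. CDHR2 overlapped between groups and was not called (log2 fold change -0.06, edgeR adjusted p = 0.74). CDHR3, known as the receptor of rhinovirus C in ciliated airway cells, had 11, 9 and 10 counts in knockout libraries, against 62, 45 and 52 in wild-type libraries. That was 20.7% of wild type (95% interval 13.5% to 30.8%), and CDHR3 fell (log2 fold change -2.25, SE 0.24, edgeR adjusted p = 4.5e-06).

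All 7 tested genes of the intermicrovillar complex and brush border were called, 3 higher and 4 lower, with a median of -0.21. Over all tested genes 60.1% were called. The other listed gene, MYO7B, was under the filter on low counts. Of the proteins that tether CDHR2 and CDHR5, CALML4 (0.81, SE 0.06) and USH1C (0.41, SE 0.04) rose, and ANKS4B fell (-0.21, SE 0.06). The microvillar actin linker ezrin (EZR, 0.37, SE 0.03) rose, while the myosin MYO1A (-0.96, SE 0.17), the actin bundlers villin (VIL1, -0.41, SE 0.03) and EPS8 (-0.37, SE 0.03) fell.

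CDHR5 (chr11:616565-626078, minus strand) and the plaque gene PKP3 (chr11:392614-404908, plus strand) lie 212 kb apart. Of the 9 tested genes between them, 3 were called lower and the other 6 were not called. Their log2 fold changes ran from -0.57 to 0.50. Among all tested genes 30.7% were called lower and 29.4% higher. Over 33 other tested genes within 500 kb of CDHR5, PKP3 included, the median was -0.00036. The near loss of CDHR5 and PKP3 was therefore not shared by the genes around them. That these lie close together was noticed after their values were seen.

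**Figure D3:**
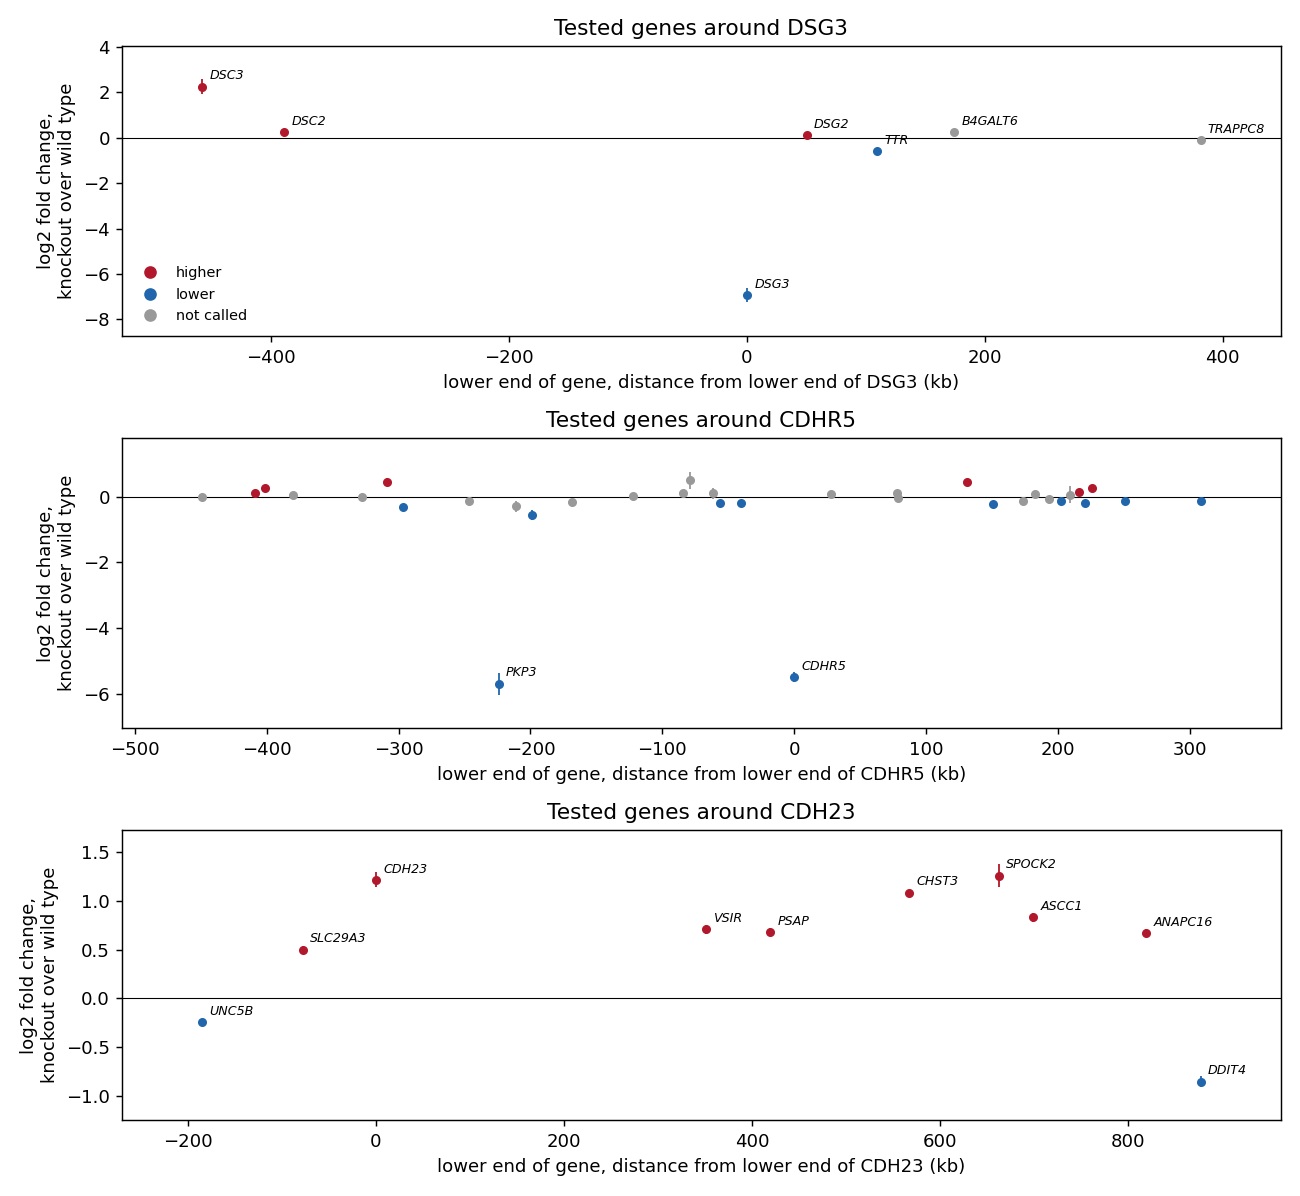
Log2 fold change (knockout over wild type, bars 1 standard error) of tested genes within 500 kb of DSG3, CDHR5 and CDH23, placed by the distance in kb between the lower-coordinate ends of the genes. DSG3, CDHR5 and PKP3 stand alone below their neighbours. Around CDH23, 7 of the 9 genes are called higher, as CDH23 is, beside 29.4% of all tested genes.

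CDH23, the long cadherin of the tip links of inner-ear hair cells, rose in the knockout. It had 19.6, 20.1 and 20.5 CPM in knockout libraries, against 9.58, 7.76 and 8.49 CPM in wild-type libraries, without overlap (log2 fold change 1.22, SE 0.08, edgeR adjusted p = 4.2e-08). Most of its neighbours rose as well. Of 9 other tested genes within 500 kb of CDH23, UNC5B and DDIT4 were called lower. The others, SLC29A3, VSIR, PSAP, CHST3, SPOCK2, ASCC1 and ANAPC16, were called higher. Calls over all tested genes were 29.4% higher and 30.7% lower. The 25 tested genes on each side of CDH23 had a median of 0.54, and with that shift taken off CDH23 stood at 0.68 (edgeR adjusted p = 1.2e-05). CDH23 also shares 3505 exon bases with C10orf105 on the opposite strand, which had at most 19.62 estimated counts in a library, and without knowledge of strand their reads cannot be told apart.

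CDH17, the liver-intestine cadherin, had 122, 121 and 121 CPM in knockout libraries, against 104, 104 and 100 CPM in wild-type libraries. The groups did not overlap, and the rise was small (log2 fold change 0.24, SE 0.03, edgeR adjusted p = 2.8e-05). CDH26, an epithelial cadherin of the gut and airway, had 5, 7 and 9 counts in knockout libraries, against 21, 20 and 28 in wild-type libraries. It was at 33.5% of wild type (95% interval 19.5% to 55.2%; log2 fold change -1.56, SE 0.31, edgeR adjusted p = 7.7e-04).

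All 9 Fat, Dachsous and Celsr genes were tested, with 6 higher, 1 lower and 2 not called. The largest rises were those of FAT3 and DCHS1. FAT3, a large cadherin studied in neurons, had 20.2, 19.2 and 20.1 CPM in knockout libraries, against 6.62, 6.39 and 7.31 CPM in wild-type libraries. No libraries overlapped, and the log2 fold change was 1.55 (SE 0.07, edgeR adjusted p = 3.1e-09). DCHS1, the ligand of FAT4, had 11.5, 10.5 and 10.1 CPM in knockout libraries, against 3.51, 3.82 and 3.57 CPM in wild-type libraries (log2 fold change 1.56, SE 0.10, edgeR adjusted p = 3.4e-08). FAT4, its receptor, rose as well, with 32.7, 35 and 33.1 CPM in knockout libraries against 23.0, 21.8 and 21.7 CPM in wild-type libraries (log2 fold change 0.60, SE 0.05, edgeR adjusted p = 6.7e-07). Both partners of the pair were thus higher without overlap, and with the shift of its neighbours (median 0.21) taken off FAT4 stood at 0.39 (edgeR adjusted p = 4.1e-05).

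The related DCHS2 had 9.56 ± 0.385 CPM in the knockout and 9.48 ± 0.857 CPM in wild type, and was not called (log2 fold change 0.02, edgeR adjusted p = 0.88). Its neighbours rose, with a median of 0.37, and with that shift taken off DCHS2 was called lower, at -0.35 (edgeR adjusted p = 0.0038). FAT1 had 188 ± 1.11 CPM in the knockout and 169 ± 5.26 CPM in wild type, a rise of 0.16 (SE 0.03, edgeR adjusted p = 8.6e-04). FAT2 was scarce, at 1.1 ± 0.0568 CPM in the knockout and 0.894 ± 0.238 CPM in wild type, and was not called.

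The 3 Celsr genes, cadherins of the core planar polarity complex with a 7-pass receptor domain, did not share a direction. CELSR1 had 60.5, 59.4 and 60.8 CPM in knockout libraries, against 75.7, 76.0 and 75.3 CPM in wild-type libraries, and fell without overlap (log2 fold change -0.33, SE 0.03, edgeR adjusted p = 3.5e-06). The genes on either side of CELSR1 fell by a median of 0.39, and relative to them its value was 0.06 (edgeR adjusted p = 0.17). CELSR3 rose, with 11.5 ± 0.897 CPM in the knockout and 8.72 ± 0.266 CPM in wild type (log2 fold change 0.39, SE 0.08, edgeR adjusted p = 9.9e-04). CELSR2 had 26.2, 29.1 and 27.8 CPM in knockout libraries, against 27.1, 22.2 and 21.6 CPM in wild-type libraries. It overlapped between groups through wild-type replicate 1, and its call (log2 fold change 0.23, SE 0.08, edgeR adjusted p = 0.025) was lost without knockout replicate 2 or 3 or without wild-type replicate 2 or 3.

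Of 15 tested planar polarity genes, 5 were higher and 4 lower, with a median of -0.01. The share called, 60%, was that of all tested genes (60.1%). The core membrane protein VANGL2 (1.27, SE 0.06), the Diversin gene ANKRD6 (1.06, SE 0.11) and the ciliogenesis gene INTU (0.57, SE 0.06) rose most. PRICKLE2 (-1.13, SE 0.07) and the Frizzled receptors FZD6 (-0.55, SE 0.09) and FZD3 (-0.42, SE 0.09) fell most.

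Of 13 non-clustered protocadherins, 6 were tested, and 2 were called, in opposite directions on chromosome 13. PCDH17 had 27.7, 27.4 and 26.7 CPM in knockout libraries, against 45.7, 47.9 and 45.2 CPM in wild-type libraries (log2 fold change -0.76, SE 0.05, edgeR adjusted p = 2.9e-08). PCDH9 had 24.1, 24.5 and 25.1 CPM in knockout libraries, against 16.9, 17.6 and 17.3 CPM in wild-type libraries (log2 fold change 0.51, SE 0.05, edgeR adjusted p = 3.4e-06). Neither gene overlapped between groups. Both are delta protocadherins, adhesion molecules of developing brain circuits, and both lie among genes with a median of -0.29. With that shift taken off, PCDH17 stood at -0.47 and PCDH9 at 0.80. PCDH1, PCDH7, PCDH12 and PCDH20 were each below 1 CPM on average in both groups and were not called. Without knockout replicate 1, PCDH20 was called lower (-1.10, edgeR adjusted p = 0.019). Without wild-type replicate 1, PCDH1 was called higher (1.00, edgeR adjusted p = 0.027). PCDH20 also shares 4577 exon bases with AL592490.1 on the same strand, so its reads may be split with that gene.

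The clustered protocadherins, whose combinations give single neurons their surface identity, changed little. The 53 genes lie in an alpha, a beta and a gamma cluster on chromosome 5. The 15 alpha genes share 2866 exon bases with one another and the 22 gamma genes 2181, while the 16 beta genes share none. Estimated counts that were not whole numbers occurred in 11 alpha, 15 beta and all 22 gamma genes, compared with 5 of 57 other members, so the split of reads between single genes is uncertain. The summed levels are free of the split within each cluster. PCDHB14 and PCDHB15 also share 169 and 379 exon bases with AC244517.10, a gene outside the beta sum. Their reads may be split with it too. The beta sum was 258 ± 3.11 CPM in the knockout and 234 ± 5.37 CPM in wild type (log2 fold change 0.14, SE 0.03, edgeR adjusted p = 8.4e-04). The gamma sum was 186 ± 7.73 CPM in the knockout and 164 ± 5.14 CPM in wild type (0.18, SE 0.04, edgeR adjusted p = 8.0e-04). For the alpha genes the sum was 6.69 ± 0.517 CPM in the knockout and 7.27 ± 0.285 CPM in wild type and was not called (-0.12, SE 0.09, edgeR adjusted p = 0.27).

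Among the beta genes, 3 of 15 tested were higher and the other 12 were not called. PCDHB5 had 64.3, 60.9 and 64.8 CPM in knockout libraries, against 49.9, 47.2 and 49.1 CPM in wild-type libraries (log2 fold change 0.38, SE 0.04, edgeR adjusted p = 5.8e-06). It did not overlap between groups. PCDHB3, from the same cluster, had 56.7 ± 0.572 CPM in the knockout and 55.8 ± 4.20 CPM in wild type and was not called (0.02, SE 0.05). PCDHB15 was scarce, with 1.15 ± 0.180 CPM in the knockout and 0.527 ± 0.0644 CPM in wild type, and rose by 1.13 (SE 0.26, edgeR adjusted p = 0.0022). PCDHB12 rose by 0.54 (SE 0.19, edgeR adjusted p = 0.026). Of the beta genes of at least 5 CPM, PCDHB2, PCDHB4, PCDHB8, PCDHB10, PCDHB11, PCDHB13, PCDHB14 and PCDHB16 were not called either, with log2 fold changes from -0.10 to 0.27. Of these, PCDHB10, PCDHB13 and PCDHB14 were each called higher in 1 of 15 alternatives.

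All 22 gamma genes were tested, with 6 higher and 2 lower. PCDHGB5, the most abundant of them, had 67.7, 66.0 and 68.7 CPM in knockout libraries, against 52.4, 56.4 and 50.6 CPM in wild-type libraries, without overlap (log2 fold change 0.35, SE 0.04, edgeR adjusted p = 2.4e-05). PCDHGA2 (0.35, SE 0.06), PCDHGB1 (0.56, SE 0.11), PCDHGB3 (0.56, SE 0.17), PCDHGA6 (0.29, SE 0.10) and PCDHGB2 (0.45, SE 0.15) were the others that rose. PCDHGC3, which unlike most of the cluster is found in many cell types, had 19.6, 18.5 and 15.7 CPM in knockout libraries, against 22.8, 19.1 and 20.3 CPM in wild-type libraries. PCDHGC3 (-0.22, SE 0.09, edgeR adjusted p = 0.047) and PCDHGA12 (-0.69, SE 0.26, edgeR adjusted p = 0.038) were called lower, though their libraries overlapped between groups. The PCDHGC3 call was lost in 8 of 15 alternatives, among them DESeq2 and all 3 other scalings, and its value was -0.12 without knockout replicate 3. PCDHGA7, PCDHGA10 and PCDHGB6, each of at least 5 CPM, were not called, but PCDHGA7 (-0.29) was called lower without knockout replicate 1 (-0.41), without wild-type replicate 1 (-0.35) and with the neighbour shift taken off (-0.44). That shift put PCDHGB5 at 0.23 and PCDHGA6, no longer called, at 0.17. The neighbours of a clustered protocadherin include other genes of the clusters, so the shift can take off a change that the cluster shares. For PCDHGA7, PCDHGB5 and PCDHGA6 it is therefore not an independent check. Over the 14 gamma genes not called, log2 fold changes ran from -0.29 to 0.98. Among them PCDHGA8 (0.97) was called higher in 5 of 14 alternatives and PCDHGC4 (0.98) in 2 of 14. PCDHGA4 (0.39) was called higher in 3 of 15 alternatives and PCDHGA9 (0.36) in 2 of 15. Without knockout replicate 3, PCDHGB2 stood at 0.28 and was not called. In the alpha cluster 4 of 15 genes were tested, and PCDHA2 alone was called, with 0.870 ± 0.0254 CPM in the knockout and 1.35 ± 0.283 CPM in wild type (-0.64, SE 0.23, edgeR adjusted p = 0.030). Of these calls, those of PCDHA2, PCDHB12, PCDHGA6, PCDHGB2, PCDHGB3, PCDHGC3 and PCDHGA12 were each lost when some single library was left out.

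**Figure D4:**
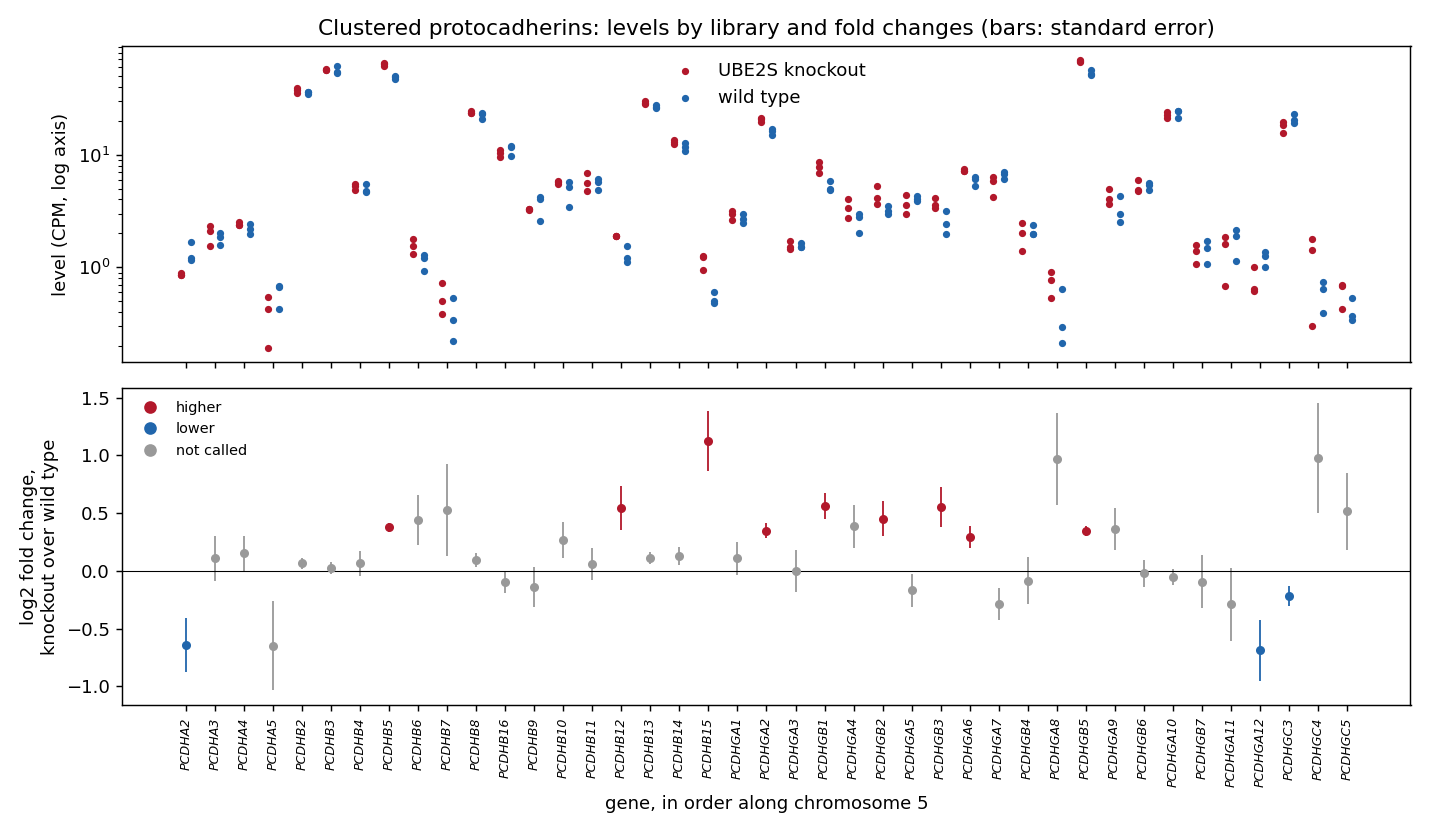
Clustered protocadherins in their order along chromosome 5: level in CPM (log axis) in the 3 UBE2S knockout (red) and 3 wild-type (blue) libraries above, and log2 fold change (knockout over wild type) with bars of 1 standard error below. Most of the 41 tested genes lie near 0, and PCDHB15, at 1.13, is the called gene with the largest change.

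Of 14 tested genes known to act on the promoters and looping of these clusters, 5 were higher and 2 lower, with a median of 0.05. Thus 50% were called, beside 60.1% of all tested genes. The cohesin subunit SMC3 (0.74, SE 0.03), the cohesin release factor WAPL (0.42, SE 0.04) and WIZ (0.46, SE 0.04) rose. SMCHD1, a repressor of the clusters, fell (-0.41, SE 0.03). CTCF, which anchors the loops, was not called (0.02).

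On the cytoplasmic side of the adherens junction, 6 of 18 tested catenins and plaque genes were higher and 5 lower, with a median of 0.05. The share called was 61.1%, near the 60.1% of all tested genes. LIMA1 (EPLIN), which links the cadherin-catenin complex to actin, had 55.1, 55.0 and 54.1 CPM in knockout libraries, against 135, 129 and 128 CPM in wild-type libraries. It fell without overlap (log2 fold change -1.26, SE 0.04, edgeR adjusted p = 3.6e-11). The adhesion receptor NECTIN1 (-0.43, SE 0.06) and the beta-catenin inhibitor CTNNBIP1 (-0.34, SE 0.05) also fell, and the catenin relatives CTNND2 (0.53, SE 0.05) and ARVCF (0.34, SE 0.08) and the nectin partner AFDN (0.23, SE 0.03) rose. The core catenins CTNNB1 (0.02) and CTNNA1 (0.05) were not called.

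Proteases and secretases that cut cadherins gave 3 higher and 5 lower of 13 tested, with a median of -0.07. The share called was 61.5%, beside 60.1% of all tested genes. ADAM15 (0.48), the gamma-secretase subunit APH1A (0.47) and ADAM17 (0.18) rose, and another subunit of it, PSENEN (-0.43), and the proprotein convertases PCSK5 (-0.32) and PCSK6 (-0.29) fell. Trafficking and turnover genes gave 3 higher and 9 lower of 15 tested (80% called), with a median of -0.21. The endocytic adaptor NUMBL (-0.90), PIP5K1C (-0.52) and the exocyst subunit EXOC4 (-0.32) fell most, while RHOA (0.14), RAC1 (0.10) and RAB11A (0.08) rose slightly. In the WAVE complex, an actin regulator that delta protocadherins bind, 3 of 9 were higher and 3 lower (66.7% called), with a median of -0.0013. WASF1 (0.36), WASF3 (0.27) and BRK1 (0.22) rose, and ABI1 (-0.49), CYFIP2 (-0.39) and WASF2 (-0.13) fell.

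**Figure D5:**
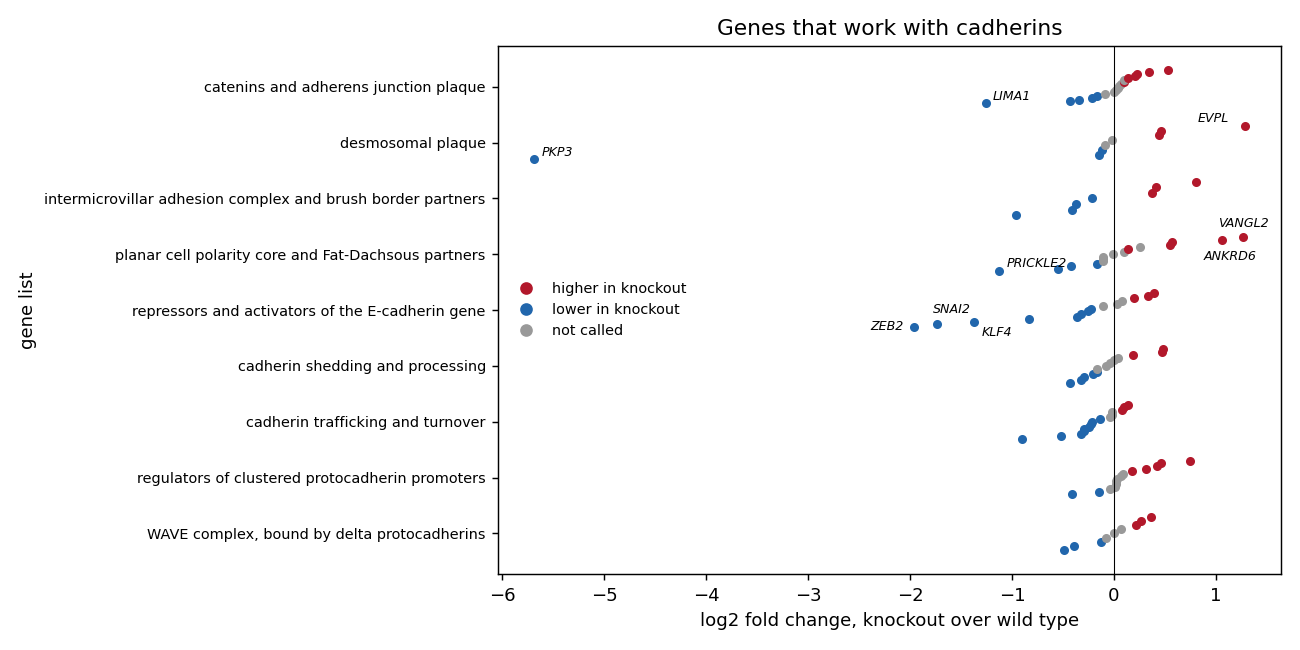
Log2 fold change (knockout over wild type) of each tested gene in 9 lists of genes that act with cadherins, coloured by the edgeR call. Most values lie near 0 on both sides, and PKP3, at -5.69, is far below the rest.

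The remaining 37 members were under the filter on low counts, and 9 of them had 0 counts in every library. Counts of at least 10 in a library were reached by CDH12, PCDHA6, PCDHA7, PCDHA10 and PCDH19, and the highest was 12. CDH8 had 0 counts in every knockout library and 5, 2 and 4 in wild-type libraries. With a floor of 3 counts over the knockout group, the lower bound of its fall there was 3.34-fold. That bound leaves out the counting error of the wild type. PCDH10 had 5, 9 and 5 counts in knockout libraries and 1, 3 and 0 in wild-type libraries, a ratio of 5.22 (95% interval 1.74 to 21.1). Both were named after their values were seen. The main fit tested neither, but edgeR with no filter beyond 1 count called both, and DESeq2 called CDH8. VE-cadherin (CDH5), the cadherin of endothelium, had 7, 2 and 4 counts in knockout libraries and 9, 3 and 5 in wild-type libraries. The 7 endothelial markers summed to 2.05 to 2.82 CPM in knockout libraries and 5.47 to 6.95 CPM in wild-type libraries, most of it PECAM1, with KDR and ERG at 0 in all libraries.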

How the data were processed

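Poly(A) RNA of 6 libraries was measured, 3 of UBE2S knockout and 3 of wild-type Huh7 cells, and groups and replicate numbers were read from sample titles. Estimated counts per gene, not normalized, were deposited by the authors as 1 table. Between 2670 and 2835 genes per library had an estimate that was not whole, and values were rounded before tests. Tools named in the submitters' processing notes, without roles, are StringTie 1.3.1, DESeq2, Bowtie2 2.2.8 and HISAT2. The sources used here do not give the counting program, genome build, annotation or strandedness.

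Members were chosen by symbol, and members and lists were chosen with earlier results of these data known. Genes were filtered by filterByExpr (minimum count 10), scaled by TMM and tested with the quasi-likelihood F test of edgeR 4.0.16 in R 4.3.3, knockout against wild type without covariates. Benjamini-Hochberg adjustment ran over all 13265 tested genes, with a threshold of 0.05, so every adjusted p is over the whole table. CPM used TMM-scaled totals. Standard errors came from the fold change and its F statistic. Exact 95% binomial intervals on summed counts cover counting error only. The floor of 3 counts covers only the counting error of the group at 0. Positions and exon lengths came from GENCODE release 29 by identifier (all 110 members matched), and promoters from RefSeq (85 members listed). The test was tested on simulated data. Named genes were UBE2S, every called member, every tested member of at least 5 CPM, members with at least 10 counts under the filter, and up to 3 called genes per direction in each list. Of these, 1 gene is not reported here. Alternatives were other scalings and filters, DESeq2 1.42.0, limma-voom (limma 3.58.1), a replicate block, a shift by the median of 25 tested genes on each side, a minimum fold, a stricter threshold, summed clusters, and each library left out.

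Marker lists of other cell types were summed per library, and their part in the results was not tested. The epithelial list summed to 144 to 147 CPM in the knockout and 147 to 151 CPM in wild type, the fibroblast list to 33.7 to 35 CPM in the knockout and 25.2 to 26.0 CPM in wild type. The immune list, with CD3E and NKG7 at 0, summed to 179 to 182 CPM in the knockout and 290 to 313 CPM in wild type. Most of it was LYZ, at a mean of 168 CPM in the knockout and 280 CPM in wild type. The neural list, with NEFL, NEFM and STMN2 at 0, summed to 49.0 to 51.9 CPM in the knockout and 57.0 to 60.6 CPM in wild type. Here TUBB3 made up most, at a mean of 45.9 CPM in the knockout and 55.5 CPM in wild type.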

Additional observations from a re-analysis of the deposited data

How the results depend on the processing

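Over 15 alternatives, 1085 values of tested members were computed: 1016 kept their side of the threshold, 46 lost the call, 21 gained one and 2 turned direction with a call in at least 1 of the fits compared. Of the 1016, 38 values of 18 members changed sign without a call in either fit. Of 35 called members, 25 kept the call wherever tested (19 higher, 6 lower). Of the 10 others, 7 were clustered protocadherins. Both turns involving a call came from the neighbour shift, which put CELSR1 at 0.059 and DCHS2 at -0.35. DESeq2 called 29 members, with 6 clustered, 0 alpha and 4 gamma protocadherins, against 12, 1 and 8 in edgeR. Of these 29, 28 were among the 35, and the other was CDH8, which the main fit did not test. Leaving out 1 library gave 30 to 39 called members and 0 to 1 alpha genes, 0 without knockout replicate 1, 2 or 3 or wild-type replicate 3. A minimum log2 fold change of 0.5 left 12 members, 7 higher and 5 lower. Summing each protocadherin cluster left 2 of 3 called. The counts of called members in this section are given without the share of all tested genes called in the same fit. The causes of these shifts were not tested.

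With the replicate number as a block, 38 members were called, 35 of them shared. Deviations of same-numbered libraries correlated at 0.0241, -0.0369 and 0.0173, so no shared deviation by number was seen. With 3 libraries per group this cannot settle whether the numbers mark a pairing. Estimates split between protocadherin genes and counts below 10 limit single values.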
